A study of Homo sapiens with 6 samples.

Results

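The 10 genes described here were the 4 FOS genes (FOS, FOSB, FOSL1 and FOSL2), the 3 JUN genes (JUN, JUNB and JUND), ATF3, EGR1 and IER2, and they were taken by symbol from the 61661 rows of a table of RNA-seq read counts. All 10 passed the filter on low counts and were among the 17686 genes tested. The libraries came from K562, an established human cell line from chronic myeloid leukemia in blast phase, collected in logarithmic growth in medium with serum and with no stimulus named in the labels. There were 3 groups of 2 libraries each. The shCTR cells are labelled WT and, per the study's methods, carry a lentivirus with a nonsense sequence. The shMETTL3 cells carry an shRNA against METTL3, the catalytic subunit of the enzyme that writes N6-methyladenosine (m6A) on mRNA, from the same vector with GFP and puromycin resistance. The shMETTL14 cells are labelled as METTL14 knockdown, METTL14 being the RNA-binding partner of METTL3, and their hairpin and vector are not given in the sources used here. The methods describe stable lines for shCTR and shMETTL3 and do not describe the shMETTL14 cells. Nothing states whether the 2 libraries of a group came from separate cultures, so p-values measure the spread between libraries, which may be technical.

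FOS, JUN and ATF3 proteins are basic leucine zipper (bZIP) transcription factors that bind DNA as pairs. JUN proteins pair with each other or with FOS proteins, FOS proteins need a JUN partner, and the pairs make up the factor AP-1, which binds the TPA response element. EGR1 is a zinc finger factor that binds GC-rich sites, and IER2 is a nuclear protein of the same early response. These genes are called immediate early because growth factors and stress switch on most of them within minutes, before new protein is made, through serum response factor with its ELK partners and through kinases of the MAPK pathway. Their mRNAs are short-lived, and several carry AU-rich elements that bring in decay factors. In K562 cells, phorbol ester treatment is known to induce FOS, JUN and EGR1 while the cells take on megakaryocytic features.

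The sequence before the start of 4 of these genes is given because their levels, or the spread of them, carry the results that follow. RefSeq windows on GRCh38.p14 were found for 9 of the 10 genes, and FOSL1 had none in the table. For JUND and EGR1 the 250 bases before the RefSeq start are printed. For FOS and JUN the RefSeq start lies inside the gene as GENCODE release 29 draws it, so only 30 bases around 1 motif are printed. The JUND window is chr19:18281623-18281872 on the minus strand, the EGR1 window chr5:138465229-138465478 on the plus strand, the FOS stretch chr14:75278783-75278812 on the plus strand and the JUN stretch chr1:58784096-58784125 on the minus strand. Capitals mark matches to the motifs named after the sequences.
JUND: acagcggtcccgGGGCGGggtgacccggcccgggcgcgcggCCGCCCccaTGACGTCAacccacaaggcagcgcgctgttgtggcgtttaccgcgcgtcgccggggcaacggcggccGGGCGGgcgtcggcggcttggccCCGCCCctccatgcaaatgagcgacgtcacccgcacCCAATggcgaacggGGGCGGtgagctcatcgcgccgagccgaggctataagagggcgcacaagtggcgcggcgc
EGR1: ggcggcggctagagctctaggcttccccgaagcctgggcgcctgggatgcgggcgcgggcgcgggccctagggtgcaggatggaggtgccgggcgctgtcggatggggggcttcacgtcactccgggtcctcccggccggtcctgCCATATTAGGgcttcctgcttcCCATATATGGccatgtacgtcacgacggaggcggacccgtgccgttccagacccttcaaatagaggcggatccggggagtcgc
FOS: taaaacgcttgtTATAAAagcagtggctgc
JUN: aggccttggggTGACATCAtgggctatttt
The capitals in the JUND window are the cyclic AMP response element TGACGTCA, from 200 to 193 bases before the start, 5 GC boxes (GGGCGG or its complement) and a CCAAT box. In the EGR1 window they are a pair of CArG boxes, the core of the serum response element, at 105 to 96 and 83 to 74 bases before the start. In the JUN stretch they are TGACATCA, a variant of the AP-1 site, at 67 to 60 bases before the start, and in the FOS stretch the TATA box TATAAA at 33 to 28 bases. Searched on both strands of 35116 RefSeq windows of 250 bases, TGACGTCA was found in 1.65%, the CArG box in 1.16%, TGACATCA in 2.37%, TATAAA in 10.7%, CCAAT in 32.0% and GGGCGG in 42.6%. The TPA response element TGACTCA, found in 4.2% of all windows, was in 0 of the 10 windows of these genes (ATF3 has a pair of windows), and the EGR1 site GCGTGGGCG, found in 0.72%, was also in 0 of 10. A match is a description of letters and not of binding, which was not measured.

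Library totals lay between 19292574 and 20115304 counts. The targeted mRNAs were lower in the cells labelled for them: METTL3 fell from 1788 and 1728 reads to 1031 and 938 with its own knockdown, and METTL14 from 656 and 655 reads to 375 and 404 with its own. Levels are given as CPM, read counts relative to library size, scaled by edgeR's TMM factors, with the mean ± SD of the 2 libraries of a group. The 9 K562 and erythroid markers, all above the filter, summed to between 865 and 959 CPM in shCTR, between 1122 and 1200 CPM in shMETTL3 and between 1020 and 1026 CPM in shMETTL14 cells. Other marker sums also moved with the groups. The megakaryocytic sum, from 2 of 5 markers that passed the filter, was 11.7 to 13.5 CPM in shCTR, 20.9 to 23.2 in shMETTL3 and 10.8 to 11.3 in shMETTL14 cells, and the monocytic and granulocytic sum, from 4 of 6 markers, was 56.0 to 63.7, 24.8 to 28.9 and 74.2 to 80.8 CPM in the same order. CD14, MPO, CD3E, MS4A1, PF4 and PPBP, which define other blood cells, had 3 reads or fewer in every library. In bulk RNA a shift in the mix of cells and a shift in RNA per cell cannot be told apart, and the part of these sums in the results was not tested.

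The 10 genes were expressed over a wide range of levels in unstimulated shCTR cells. Per kilobase of exon, JUND was the most abundant at 93.3 CPM per kb and was above 97.6% of the 16674 tested genes with a known length. It was followed by IER2 at 48.8, EGR1 at 29.4, JUNB at 28.2, JUN at 13.7, ATF3 at 12.2 and FOSL1 at 10.5 CPM per kb. FOS itself was far lower at 2.57 CPM per kb, above 39.5% of genes, and FOSB at 0.450 and FOSL2 at 0.137 CPM per kb were near the bottom, above 13.8% and 4.36% of genes. Among neighbours in this order the shCTR libraries of EGR1 and JUNB overlapped, and those of the other neighbours did not. These levels use the union of all annotated exons of a gene, which equals the longest transcript for JUND, JUNB, JUN and EGR1 and exceeds it for the others. With the length of the longest transcript instead, chosen after seeing the data, ATF3 was at 23.5 CPM per kb and above JUN, FOSL1 was at 11.8 and overlapped JUN, FOS was at 3.86, and the rest of the order stayed. In shMETTL14 cells JUN, at 8.45 and 9.58 CPM per kb, was below FOSL1 with either length (10.2 and 10.7, or 11.6 and 12.1).

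**Figure D1:**
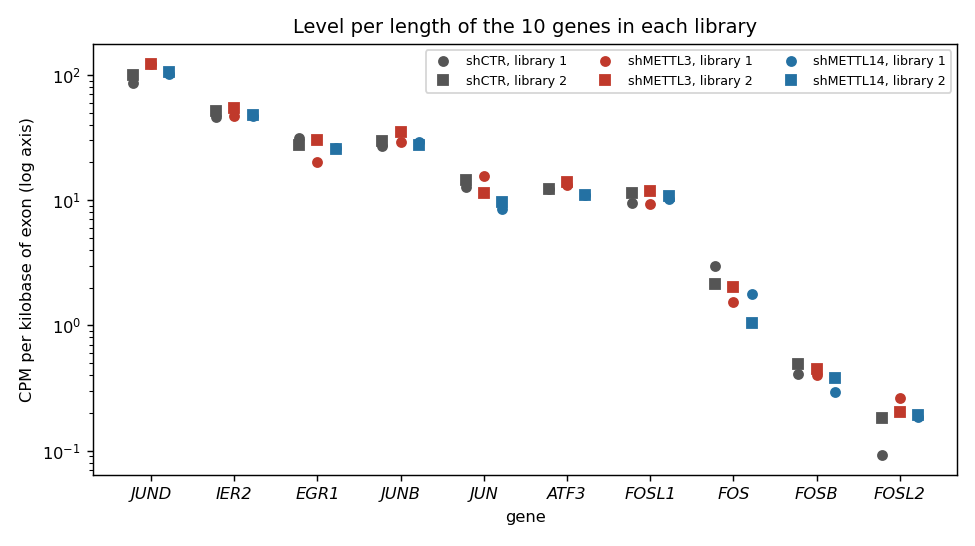
Level of the 10 genes per kilobase of exon (CPM per kb, log axis) in each of the 6 libraries, by gene and coloured by group, with circles for library 1 and squares for library 2. JUND was highest at 93.3 CPM per kb in shCTR cells and FOSL2 lowest at 0.137, and the libraries of a gene lay close together against this range.

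A single gene made up most of each family. Of the summed level per kilobase of the 3 JUN genes, JUND held between 68.4% and 74.1% in the 6 libraries, JUNB between 17.3% and 21.4% and JUN between 6.06% and 10.1%. Of the 4 FOS genes, FOSL1, the mRNA of FRA-1, held between 73.2% and 86.9%. The share of FOS was 23.0% and 15.1% in shCTR, 13.2% and 14.01% in shMETTL3 and 14.3% and 8.44% in shMETTL14 cells, lower in all 4 knockdown libraries than in either control. The JUN family summed to 126 and 145 CPM per kb in shCTR, 167 and 169 in shMETTL3 and 139.5 and 143 in shMETTL14 cells. The FOS family summed to 13.0 and 14.2, 11.6 and 14.4, and 12.5 and 12.3 CPM per kb in the same order. Both shMETTL14 libraries were below both controls, and the shMETTL3 libraries were the lowest and the highest of all. These shares and sums use the exon union and have no test of their own. With the length of the longest transcript, FOSL1 was at 10.8 and FOS at 4.50 CPM per kb in shCTR replicate 1, against 9.55 and 3.00 with the union. The share of FOSL1 was then smaller in that library, and FOSL1 was still the highest of the 4 FOS genes.

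**Figure D2:**
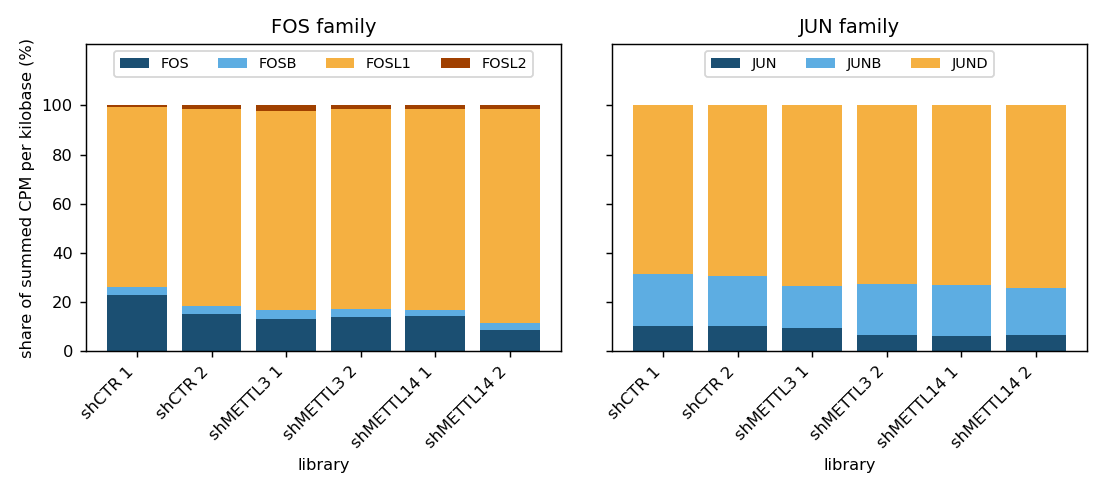
Share of each gene (percent, bars stacked to 100) in the summed CPM per kilobase of the FOS family and of the JUN family, with 1 bar for each of the 6 libraries. With the exon union as length, FOSL1 held at least 73.2% of the FOS family and JUND at least 68.4% of the JUN family in every library.

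Across the genome, the quasi-likelihood test of edgeR, adjusted by Benjamini and Hochberg's method, called 8.73% of the 17686 genes higher and 7.73% lower in shMETTL3 than in shCTR cells at an adjusted p under 0.05. Of the 10 genes, 1 was called higher (JUND) and 0 lower, which for the rises is close to the share among all genes. At an unadjusted p under 0.05, edgeR had 3 higher and 1 lower, where 29.9% of all genes were under that value in either direction, and DESeq2 called 1 higher and 0 lower. In shMETTL14 against shCTR cells, 3.43% of all genes were called higher and 3.26% lower. Here 0 of the 10 genes were called higher and 2 lower (FOS and JUN), with 1 higher and 3 lower at an unadjusted p under 0.05 in edgeR (20.7% of all genes), and 0 and 1 called by DESeq2. When the knockdowns were compared with each other, shMETTL3 cells had 6.65% of all genes higher and 5.49% lower than shMETTL14 cells. Of the 10 genes, 3 were called higher (JUN, JUND and ATF3) and 0 lower, with 3 and 0 at an unadjusted p under 0.05 in edgeR (25% of all genes) and 2 and 0 called by DESeq2. The median log2 fold change of the 10 genes was 0.03, -0.10 and 0.27 in the 3 comparisons. Both comparisons with shCTR use the same control libraries, so their values are set side by side without a measure of likeness.

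**Figure D3:**
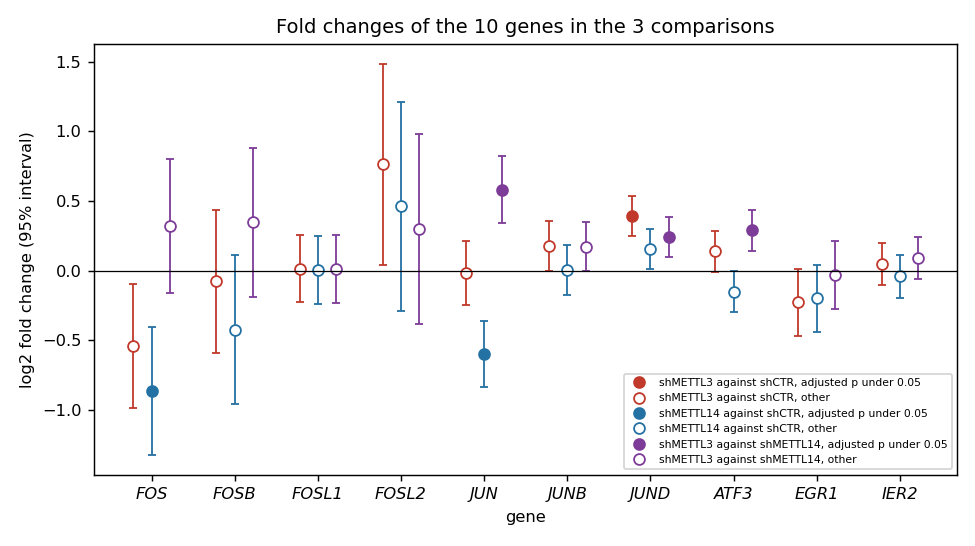
Log2 fold change of each of the 10 genes with its 95% interval in the 3 comparisons, filled where the edgeR adjusted p was under 0.05. JUND (0.40) is filled for shMETTL3 against shCTR, FOS (-0.86) and JUN (-0.60) for shMETTL14 against shCTR, and JUN (0.58), JUND (0.24) and ATF3 (0.29) for shMETTL3 against shMETTL14.

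JUND (ENSG00000130522, minus strand of chromosome 19 from 18279760 to 18281622), which encodes the JUN protein present in most resting cells and often linked to slowed growth, rose with METTL3 knockdown. Its libraries had 3168 and 3585 reads in shCTR, 4499 and 4578 in shMETTL3 and 3727 and 3866 in shMETTL14 cells, or 160.3 and 187, 229 and 228, and 189.7 and 197 CPM. Both shMETTL3 libraries were above the other 4, and both shMETTL14 libraries lay between the groups. The mean was 174 ± 19.0 CPM (SD, n = 2) in shCTR and 229 ± 0.620 CPM (SD, n = 2) in shMETTL3 cells, and the log2 fold change was 0.40 (standard error 0.0688, 95% interval 0.25 to 0.54, edgeR adjusted p = 0.000559). In shMETTL14 cells, at 193 ± 5.32 CPM (SD, n = 2), the log2 fold change from shCTR was 0.15 (edgeR adjusted p = 0.205), or 0.27 without shCTR replicate 2 (edgeR adjusted p = 0.00875). The direct comparison gave 0.24 in favour of shMETTL3 (standard error 0.0686, edgeR adjusted p = 0.0246), and it was not called when any 1 of these 4 libraries was left out (0.21 to 0.27, edgeR adjusted p from 0.109 to 0.229). JUND exons are rich in G and C, with a GC content of 69.7%, and the 2358 tested genes above 60% GC had a median log2 fold change of 0.13 in shMETTL3 against shCTR cells. With the GC and length trend of each library removed, JUND was still called, at a log2 fold change of 0.20 (edgeR adjusted p = 0.00734). The difference from shMETTL14 was not, at 0.13 (edgeR adjusted p = 0.0900).

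JUN (ENSG00000177606, minus strand of chromosome 1 from 58780788 to 58784327), which encodes c-Jun, the strongest transcriptional activator of its family, fell with METTL14 knockdown and had no detected change with METTL3 knockdown. It had 892 and 987 reads in shCTR, 1086 and 810 in shMETTL3 and 588 and 665 in shMETTL14 cells, or 45.1 and 51.6, 55.3 and 40.4, and 29.9 and 33.9 CPM. Both shMETTL14 libraries were below the other 4, while the shMETTL3 libraries were the highest of all and the lowest of the remaining 4, on either side of the controls. From 48.3 ± 4.54 CPM in shCTR to 31.9 ± 2.83 CPM in shMETTL14 cells (SD, n = 2 each), the log2 fold change was -0.60 (standard error 0.114, 95% interval -0.84 to -0.36, edgeR adjusted p = 0.00250). DESeq2 gave the same log2 fold change with an adjusted p of 0.0635, and without shMETTL14 replicate 1 edgeR gave -0.51 (adjusted p = 0.112). In shMETTL3 cells, at 47.8 ± 10.5 CPM (SD, n = 2), the log2 fold change from shCTR was -0.02 with a 95% interval of -0.24 to 0.21. JUN was higher in shMETTL3 than in shMETTL14 cells by a log2 fold change of 0.58 (standard error 0.114, edgeR adjusted p = 0.00161). Without shMETTL3 replicate 1, the higher of that pair, it was 0.34 (edgeR adjusted p = 0.0808), without shMETTL14 replicate 1 it was 0.49 (edgeR adjusted p = 0.0689), and DESeq2 gave an adjusted p of 0.0592.

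JUNB (ENSG00000171223, plus strand of chromosome 19 from 12791496 to 12793315), which encodes a JUN protein that can dampen c-Jun activity, was not called in any of the 3 comparisons. It stood at 49.0 and 53.6 CPM in shCTR, 52.7 and 63.4 in shMETTL3 and 53.3 and 49.9 in shMETTL14 cells, so all groups overlapped. The log2 fold changes were 0.18 in shMETTL3 against shCTR (edgeR adjusted p = 0.163) and 0.01 in shMETTL14 against shCTR (edgeR adjusted p = 0.976). An exon of HOOK2 on the opposite strand overlaps JUNB by 259 bases, and the sources used here do not say whether counting used the strand, so its values are uncertain to that extent.

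**Figure D4:**
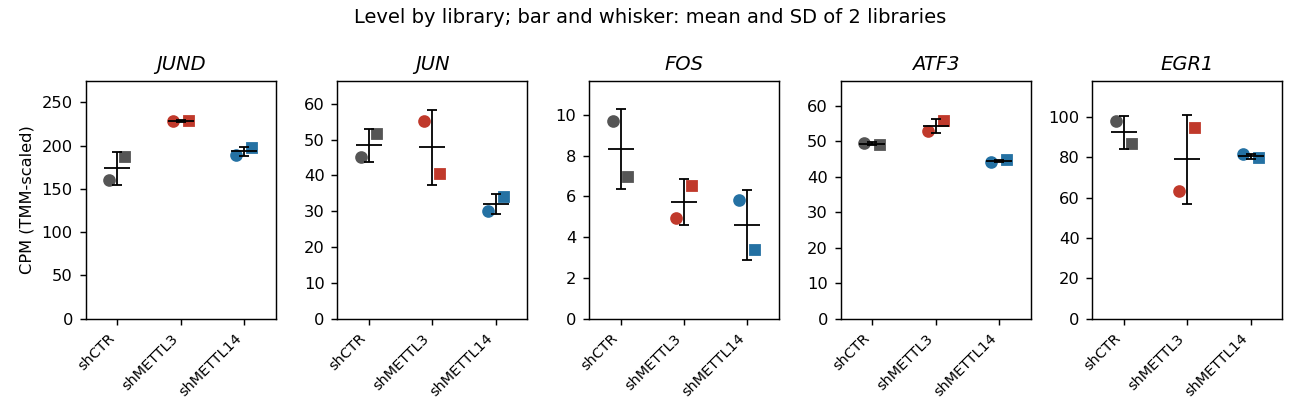
Level of JUND, JUN, FOS, ATF3 and EGR1 (CPM, axes from 0) in each library by group, with circles for library 1, squares for library 2, and a bar and whisker for the mean and SD of 2 libraries. The shMETTL3 libraries of JUND (229 and 228 CPM) stand at nearly the same height, while those of JUN (55.3 and 40.4 CPM) and EGR1 (63.4 and 94.5 CPM) lie far apart.

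FOS (ENSG00000170345, plus strand of chromosome 14 from 75278774 to 75282230), which encodes c-Fos, the founding FOS protein and among the fastest serum-induced factors, fell with METTL14 knockdown. It had 192 and 133 reads in shCTR, 97 and 131 in shMETTL3 and 114 and 66 in shMETTL14 cells, or 9.72 and 6.95, 4.94 and 6.53, and 5.80 and 3.37 CPM. All 4 knockdown libraries were below both controls, and the knockdown groups overlapped each other. The mean was 8.33 ± 1.96 CPM in shCTR and 4.58 ± 1.72 CPM in shMETTL14 cells (SD, n = 2 each), giving -0.86 as log2 fold change (standard error 0.221, 95% interval -1.32 to -0.40, edgeR adjusted p = 0.0219). In shMETTL3 cells, at 5.73 ± 1.12 CPM (SD, n = 2), the log2 fold change was -0.54 (standard error 0.214, 95% interval -0.99 to -0.09) and did not pass the adjustment over all genes (edgeR adjusted p = 0.0926). The difference between the knockdowns was 0.32 (edgeR adjusted p = 0.422). The call in shMETTL14 cells rested on single libraries: without shCTR replicate 1 the log2 fold change was -0.60 (edgeR adjusted p = 0.229), without shMETTL14 replicate 2 it was -0.52 (edgeR adjusted p = 0.302), and without shMETTL14 replicate 1 it was -1.31 (edgeR adjusted p = 0.0140). Without the filter on low counts the edgeR adjusted p was 0.0511.

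The other 3 FOS genes were not called in any comparison. FOSL1 (chromosome 11, 65892049 to 65900573, minus strand), whose protein FRA-1 lacks the activation domain of c-Fos, had 356 and 411 reads in shCTR, 348 and 444 in shMETTL3 and 380 and 396 in shMETTL14 cells. Its groups overlapped, and its log2 fold change was 0.01 in shMETTL3 (95% interval -0.23 to 0.26) and 0.0029 in shMETTL14 cells (95% interval -0.24 to 0.25). FOSB (chromosome 19, 45467995 to 45475179, plus strand), known for its long-lived short form in neurons, had 45 and 52, 44 and 50, and 32 and 41 reads in shCTR, shMETTL3 and shMETTL14 cells. Both shMETTL14 libraries were lowest, at 1.63 and 2.09 CPM against 2.28 and 2.72 CPM in shCTR, with a log2 fold change of -0.42 (standard error 0.255, edgeR adjusted p = 0.371). FOSL2 (chromosome 2, 28392448 to 28417312, plus strand), which encodes FRA-2, had only 13 and 25 reads in shCTR, 37 and 29 in shMETTL3 and 26 and 27 in shMETTL14 cells, so the controls were the lowest libraries. Its log2 fold change was 0.76 in shMETTL3 cells (standard error 0.346, edgeR adjusted p = 0.144), and at this depth the 95% interval ran from 0.04 to 1.49. Without shCTR replicate 2, FOSL2 was called, at 1.33 (edgeR adjusted p = 0.0378), as was the fall of FOS in shMETTL3 cells, at -0.76 (edgeR adjusted p = 0.0341).

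ATF3 (ENSG00000162772, plus strand of chromosome 1 from 212565334 to 212620777), a bZIP factor switched on by many stresses that often represses its targets, separated the knockdowns from each other. It had 982 and 940 reads in shCTR, 1041 and 1121 in shMETTL3 and 871 and 876 in shMETTL14 cells, or 49.7 and 49.1, 53.0 and 55.9, and 44.3 and 44.7 CPM. Both shMETTL3 libraries were above the controls and both shMETTL14 libraries below them. The means were 49.4 ± 0.420, 54.4 ± 2.03 and 44.5 ± 0.253 CPM (SD, n = 2 each), and neither knockdown was called against shCTR, with log2 fold changes of 0.14 in shMETTL3 (edgeR adjusted p = 0.188) and -0.15 in shMETTL14 cells (edgeR adjusted p = 0.236). The direct comparison gave 0.29 (standard error 0.0707, edgeR adjusted p = 0.00898). It was no longer called without shMETTL3 replicate 2, without shMETTL14 replicate 1 or without shMETTL14 replicate 2, with log2 fold changes of 0.25, 0.28 and 0.30 and edgeR adjusted p of 0.146, 0.105 and 0.0867. With the GC and length trend removed, ATF3 was called in shMETTL3 against shCTR cells at 0.19 (edgeR adjusted p = 0.0335).

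EGR1 (ENSG00000120738, plus strand of chromosome 5 from 138465490 to 138469315) was not called in any comparison, and 1 library set its spread. It had 1941 and 1658 reads in shCTR, 1246 and 1897 in shMETTL3 and 1602 and 1564 in shMETTL14 cells, or 98.2 and 86.6, 63.4 and 94.5, and 81.5 and 79.8 CPM. The shMETTL3 libraries were the lowest and the next to highest of the 6, a ratio of 1.49 between libraries of the same group. The log2 fold change was -0.23 in shMETTL3 (95% interval -0.47 to 0.01, edgeR adjusted p = 0.194) and -0.20 in shMETTL14 cells (edgeR adjusted p = 0.353). Without shMETTL3 replicate 2, the shMETTL3 value was -0.54 (edgeR adjusted p = 0.00142), and without shMETTL3 replicate 1 it was 0.03 (edgeR adjusted p = 0.872). Against shMETTL14 cells EGR1 had a log2 fold change of -0.03, and of -0.35 without shMETTL3 replicate 2 (edgeR adjusted p = 0.0374). IER2 (ENSG00000160888, plus strand of chromosome 19 from 13150415 to 13154908) was at 142 and 158 CPM in shCTR, 144 and 166 in shMETTL3 and 145 and 146 in shMETTL14 cells. Its groups overlapped, with log2 fold changes of 0.05 in shMETTL3 (edgeR adjusted p = 0.702) and -0.04 in shMETTL14 cells (edgeR adjusted p = 0.804), and an antisense gene shares 629 of its exon bases.

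Within a group, libraries varied beyond counting error, for all genes as for these. The mean chi-square per gene between the libraries of a group, 1 where only counting error acts, was 5.30, 3.04 and 2.55 over all genes for shCTR, shMETTL3 and shMETTL14, and 10.1, 23.9 and 2.44 over the 10 genes, and it grows with read count. In exact two-sided binomial tests of 1 library against the other, adjusted over 30 tests, 6 of the 10 genes differed within shCTR, 5 within shMETTL3 and 1 within shMETTL14. These tests compare libraries, not conditions. Among the 14 heat and handling stress genes, the heat-induced chaperone genes HSPA1A and DNAJB1 stood apart in 1 library. The list's sum was 3989 CPM in that library, shMETTL3 replicate 1, and between 3217 and 3724 CPM in the other 5. Of the 14, 0 were called higher and 2 lower in shMETTL3 than in shCTR cells, beside 8.73% and 7.73% of all genes. SERPINH1 was 1 of them, at a log2 fold change of -0.98 (edgeR adjusted p = 9.45e-09). The counts were 0 and 1 in shMETTL14 against shCTR cells, and 4 and 1 in shMETTL3 against shMETTL14 cells. HSPA1A was at 267 CPM in shMETTL3 replicate 1 and between 72.2 and 132 CPM in the other 5 libraries, with reads that a near-identical copy, HSPA1B, may share. DNAJB1 was at 178 CPM there and between 74.5 and 106 CPM elsewhere. In the same library JUN was the highest of the 6 (55.3 CPM), EGR1 the lowest (63.4 CPM) and DUSP1, an immediate early MAPK phosphatase, the highest (21.8 CPM against 13.1 to 17.9). JUND was at 229 CPM in shMETTL3 replicate 1 and 228 CPM in replicate 2. Whether handling had a part in the values of JUN, EGR1 or JUND was not tested.

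For the lists that follow, the share of all genes called is the one given above for each comparison, and a named gene was called in 11 of 11 alternatives unless a lower number stands beside it. Regulators that act on these genes moved in both directions. Of 16 transcription regulators, all tested, 3 were higher and 3 lower in shMETTL3 than in shCTR cells, 1 higher and 0 lower in shMETTL14 than in shCTR cells, and 0 higher and 2 lower in shMETTL3 than in shMETTL14 cells. At an unadjusted p under 0.05 edgeR had 4 and 3, 4 and 1, and 0 and 2, and DESeq2 called 1 and 2, 1 and 0, and 0 and 1. With 1 library left out, between 1 and 5, between 0 and 3, and 1 each time were called. ELK1, the ternary complex factor that sits with SRF on serum response elements, was higher in both knockdowns, with log2 fold changes of 0.37 (edgeR adjusted p = 0.000922) and 0.28 (edgeR adjusted p = 0.0157, called in 8 of 11). ATF1, which binds cyclic AMP response elements, was lower in shMETTL3 cells (-0.39, edgeR adjusted p = 0.00390, called in 10 of 11). NAB2, a corepressor of EGR1, was at a log2 fold change of 0.33 there (edgeR adjusted p = 0.0412) but was called in only 4 of 11, and with the GC and length trend removed it was at 0.19 (edgeR adjusted p = 0.149). Of 14 tested kinases (of 16) that phosphorylate these factors or their regulators, 0 were called in shMETTL3 against shCTR cells by edgeR and 0 by DESeq2, with 3 higher and 2 lower at an unadjusted p under 0.05, and 3 were called lower with the GC and length trend removed and up to 5 called with 1 library left out. In shMETTL14 cells 1 was called, MAPK11, a p38 kinase, which fell by 0.33 on the log2 scale (edgeR adjusted p = 0.0218), was called in 6 of 11 alternatives, and DESeq2 called 0 of the kinases. Of 11 factors of mRNA decay and AU-rich element binding, all tested, 0 were higher and 4 lower in shMETTL3 cells, and 0 higher and 2 lower in shMETTL14 cells, with a median log2 fold change of -0.14 and -0.06. At an unadjusted p under 0.05 edgeR had 1 higher and 5 lower in shMETTL3 cells, and 0 higher and 3 lower in shMETTL14 cells. DESeq2 called 0 higher and 3 lower, and 0 higher and 2 lower. With 1 library left out, between 0 and 5 and between 0 and 2 were called. ZFP36L2, which brings decay enzymes to AU-rich mRNAs, was lower in shMETTL3 cells (-0.31, edgeR adjusted p = 0.00291, called in 10 of 11). Its relative ZFP36L1 was lower in both knockdowns (-0.24 and -0.30, edgeR adjusted p = 0.0219 and 0.0135), called in 6 and 9 of 11.

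Of 25 bZIP genes whose proteins can pair or share sites with FOS and JUN, 23 were tested. In shMETTL3 against shCTR cells 6 were higher and 2 lower, and in shMETTL14 against shCTR cells 4 were higher and 1 lower. Between the knockdowns, 7 were higher and 0 lower in shMETTL3 than in shMETTL14 cells. At an unadjusted p under 0.05 edgeR had 9 higher and 2 lower, 4 and 5, and 8 and 2 in the same order. DESeq2 called 5 and 2, 3 and 1, and 6 and 0. With 1 library left out, the calls numbered from 3 to 10, from 0 to 6 and from 1 to 6. The list's median log2 fold change was 0.10, -0.05 and 0.18, against 0.00299, -0.00014 and -0.00166 for all genes tested. MAF, which pairs with FOS and JUN proteins, was higher in both knockdowns, at 3.31 CPM on average in shCTR cells, 7.40 CPM with METTL3 knockdown and 6.17 CPM with METTL14 knockdown (log2 fold changes 1.16 and 0.90, edgeR adjusted p = 0.000289 and 0.00675, the latter called in 10 of 11). ATF5, a stress-response factor, was higher in shMETTL3 than in shCTR cells by 0.44 (edgeR adjusted p = 0.000428) and than in shMETTL14 cells by 0.68 (edgeR adjusted p = 3.19e-06). JDP2, a repressor that pairs with JUN, was higher in shMETTL3 than in shMETTL14 cells by 0.68 (edgeR adjusted p = 0.00485, called in 9 of 11), the same direction as JUN.

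Of 35 genes known as targets of AP-1 or EGR1, 25 were tested, and MMP1, MMP3, MMP9, MMP10 and MMP13, classical AP-1 targets, did not pass the filter. In shMETTL3 against shCTR cells 11 were higher and 4 lower, beside 8.73% and 7.73% of all genes, with a median log2 fold change of 0.25. In shMETTL14 against shCTR cells 2 were higher and 5 lower, beside 3.43% and 3.26% of all genes, with a median of -0.08 and with 6 higher and 9 lower at an unadjusted p under 0.05. In shMETTL3 against shMETTL14 cells 10 were higher and 2 lower, with a median of 0.01. With 1 library left out, the calls numbered from 10 to 15, from 4 to 10 and from 8 to 9. CCND1, which encodes cyclin D1 and has an AP-1 site in its promoter, was at 36.7 and 40.7 CPM in shCTR, 50.9 and 54.7 in shMETTL3 and 21.8 and 17.9 in shMETTL14 cells, with no overlap between any of the groups. Its log2 fold change was 0.45 in shMETTL3 and -0.97 in shMETTL14 cells, and 1.41 between them (edgeR adjusted p = 5.11e-09). THBS1, which encodes the matrix protein thrombospondin 1, followed the same order at 18.0 and 17.3, 25.4 and 29.95, and 8.96 and 8.16 CPM (log2 fold change between the knockdowns 1.69, edgeR adjusted p = 5.42e-09). Other targets did not split this way: FN1, which encodes fibronectin, was higher in both knockdowns, with log2 fold changes of 1.04 and 1.13 (edgeR adjusted p = 2.43e-06 and 1.82e-06). CDKN1A, which encodes the cell cycle inhibitor p21, was higher in shMETTL3 cells by 1.03 (edgeR adjusted p = 2.94e-08). These genes have many other regulators, and binding of AP-1 or EGR1 was not measured.

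**Figure D5:**
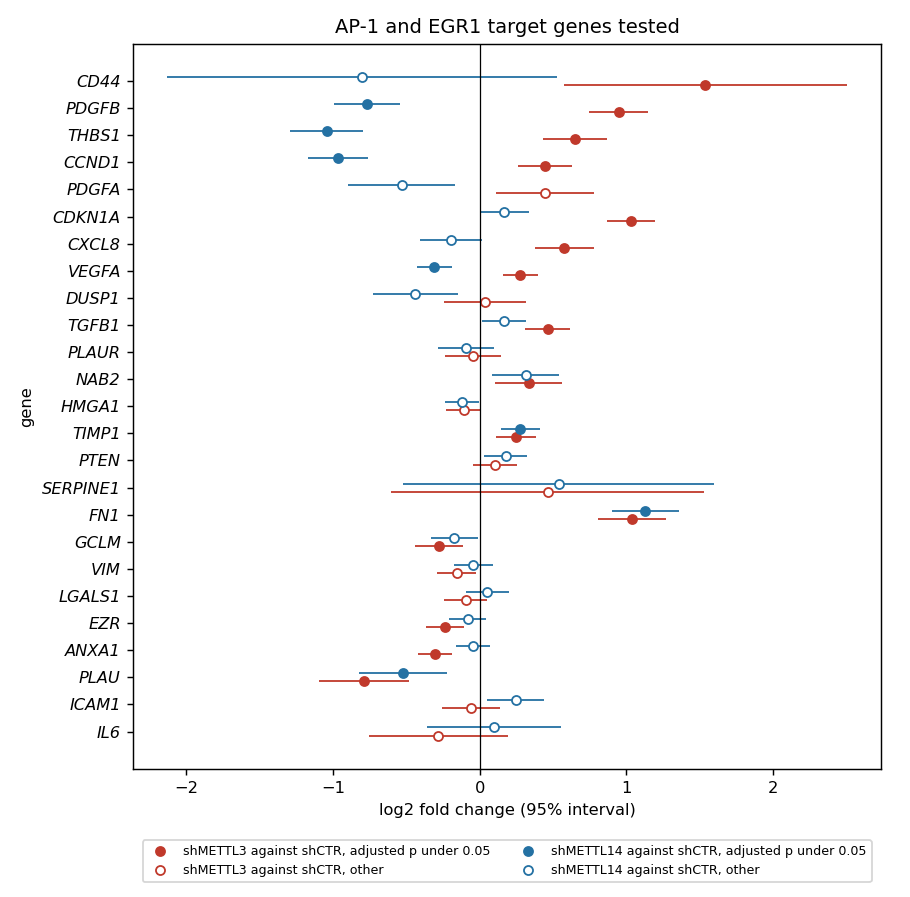
Log2 fold change with its 95% interval of the 25 tested AP-1 and EGR1 target genes in both knockdowns against shCTR, filled where the edgeR adjusted p was under 0.05. THBS1, CCND1 and PDGFB lie right of 0 for shMETTL3 and left of 0 for shMETTL14, while FN1 lies right of 0 for both (1.04 and 1.13).

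Of 59 other immediate early genes, 47 were tested, and EGR2, EGR3 and EGR4, the relatives of EGR1, were too low to test. In shMETTL3 against shCTR cells 8 were higher and 7 lower, in shMETTL14 against shCTR cells 3 were higher and 2 lower, and in shMETTL3 against shMETTL14 cells 10 were higher and 4 lower, with median log2 fold changes of 0.08, -0.01 and 0.07. With 1 library left out, the calls numbered from 8 to 17, from 1 to 8 and from 7 to 10. In shMETTL14 against shCTR cells the count also moved with the processing, from 2 called by DESeq2 to 3 higher and 7 lower with the GC and length trend removed. CXCL8, a chemokine gene that AP-1 activates, was higher in shMETTL3 cells (0.58, edgeR adjusted p = 0.000400), as was RHOB, a small GTPase gene (0.60, edgeR adjusted p = 0.00260, called in 10 of 11). TRIB1, a pseudokinase that promotes the decay of C/EBP proteins, was lower in shMETTL3 cells (-0.57, edgeR adjusted p = 0.000767). In shMETTL14 cells it was at -0.34 (edgeR adjusted p = 0.0477) and was called in only 3 of 11. BTG2, an antiproliferative gene, was higher in shMETTL14 cells (0.66, edgeR adjusted p = 0.000369) and lower in shMETTL3 than in shMETTL14 cells (-0.71, edgeR adjusted p = 8.63e-05), the opposite direction to JUN. Genes on more than 1 list are counted in each: CXCL8 and DUSP1 are also targets, ZFP36, ZFP36L1 and ZFP36L2 also decay factors, SRF and ERF also regulators, MAFF also a bZIP gene, ATF1 and CREB1 are regulators and bZIP genes, and NAB2 is a regulator and a target.

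The genes whose log2 CPM followed the called genes most closely over the 6 libraries, among 12768 genes with a mean of at least 50 counts, were found by Pearson's r as a description. JUND was most like SP6, HECTD3 and RTN4 (each r = 0.994). JUN was most like NIPSNAP1 (r = 0.993), PPP1R15A (0.988), a stress-induced phosphatase subunit gene on the list of immediate early genes, and DEPDC4 (0.982). FOS was most like the pseudogene VDAC1P8 (r = 0.998), GOSR1 (0.985) and ZNF561 (0.980), and ATF3 was most like WIPI1 (0.995), GADD45A (0.994), an immediate early gene of the DNA damage response, and HOXB9 (0.993). With 6 libraries and so many genes, values of this size are found for many genes, and the libraries share their groups.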

How the data were processed

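RNA from 6 K562 libraries was enriched with oligo(dT) beads, reverse transcribed with random primers and amplified by PCR before sequencing, per the labels. The authors deposited 1 table of raw counts per gene, whole numbers that are not normalized. The submitters' processing notes name HTSeq 0.6.1 and the build hg38, and the aligner and strand setting are not given in the sources used here. Of 61661 rows, 986 had no Ensembl ID, held between 0.635% and 0.703% of a library's counts and stayed in the totals. A gene name table gave symbols for 56558 rows and GENCODE release 29 for 497 others. Coordinates, exon lengths and GC content came from GENCODE release 29 on GRCh38. Level per length divides CPM by the union of all annotated exons, which understates the level of genes whose transcripts use only some of them, and by different amounts.

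Counts were analysed with edgeR 4.0.16 in R 4.3.3, with filterByExpr at a minimum count of 10, TMM factors, 1 quasi-likelihood fit to the 6 libraries, Benjamini-Hochberg adjustment over 17686 genes and a threshold of 0.05. SDs are over 2 libraries. Standard errors and 95% intervals come from the fit. No molecular identifiers are named, so counting error does not include PCR copies. TMM takes most genes as unchanged, and a shift of all mRNA together would not show. Of each list, the genes named are at most the 4 largest changes per comparison among called genes whose groups did not overlap and whose libraries all had 10 counts or more, and DUSP1, HSPA1A and HSPA1B were named after their values were seen. The alternatives were DESeq2 1.42.0, DESeq2 size factors, library size alone, no filter on low counts, a fit with the replicate number as a block, a fit to the compared groups alone, removal of each library's GC and length trend (mgcv 1.9.3), and each library left out in turn. The length of the longest transcript was added after seeing the data. On simulated data, a GC trend put into both shMETTL3 libraries made edgeR call many unchanged genes unless it was removed. That trend was steeper than the one in these data, so it does not give the share of false calls here. In shMETTL3 against shCTR cells the median log2 fold change was -0.08 for genes up to 40% GC and 0.13 above 60%. The 10 genes and the 7 lists were chosen with earlier results of these data known, the lists from general knowledge.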

Additional observations from a re-analysis of the deposited data

Results flagged for a closer look

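Of the 10 genes, 3 had effects that differed between the knockdowns in a direct test, shMETTL3 against shMETTL14, in edgeR's fit over all genes. For JUN the log2 difference was 0.58 (edgeR adjusted p = 0.00161), higher in 2 of 2 shMETTL3 libraries than in both shMETTL14 libraries. It lay between 0.34 and 0.79 when 1 library was left out. For ATF3 it was 0.29 (edgeR adjusted p = 0.00898) and for JUND 0.24 (edgeR adjusted p = 0.0246), again with no overlap between the groups, against 6.65% of all genes called in this direction. With 1 library left out, ATF3 lay between 0.25 and 0.33 and JUND between 0.21 and 0.27. JUND was not called in any of these fits, and JUN and ATF3 lost their calls in some of them. With the GC and length trend removed, JUND was at 0.13 and was not called (edgeR adjusted p = 0.0900). DESeq2 called 2 of the 3 genes, and not JUN. JUN was below shCTR in shMETTL14 cells, JUND was above shCTR in shMETTL3 cells, and ATF3 was on opposite sides of shCTR in the 2 knockdowns, with neither side called by itself.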

How the results depend on the processing

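The rise of JUND in shMETTL3 cells was called in 11 of 11 alternatives, with log2 fold changes from 0.20 to 0.51, the lowest with the GC and length trend removed. The fall of JUN in shMETTL14 cells was called in 9 of 11 and that of FOS in 8 of 11. With the GC and length trend removed they were -0.63 (edgeR adjusted p = 0.000747) and -0.88 (edgeR adjusted p = 0.0152). Among the 10 genes, DESeq2 called 1 in shMETTL14 against shCTR cells, where edgeR called 2, and no filter on low counts gave 1. Removing the GC and length trend gave 2 in shMETTL3 against shCTR cells, where edgeR called 1. Leaving out 1 library at a time, the count ran from 1 to 3 in shMETTL3 against shCTR, from 1 to 3 in shMETTL14 against shCTR and from 0 to 2 in shMETTL3 against shMETTL14 cells (3 with all libraries). The 0 came without shMETTL14 replicate 1. In these fits the lone library of a group is assumed to vary like the others.

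Over all genes, edgeR called 2912 in shMETTL3 against shCTR, 1184 in shMETTL14 against shCTR and 2148 in shMETTL3 against shMETTL14 cells. DESeq2 called 1881, 763 and 1327, and no filter on low counts gave 766 in shMETTL14 cells. Leaving out each library in turn, the counts ran from 1144 to 3504, from 334 to 1888 and from 927 to 1179. Scaling by library size without TMM factors, 2158 genes were higher and 858 lower in shMETTL3 against shCTR cells (1544 and 1368 with TMM), 743 and 443 in shMETTL14 against shCTR cells (607 and 577), and 1399 and 754 between the knockdowns (1177 and 971). The log2 fold change of HSPA1B in shMETTL3 against shCTR cells ran from -0.49 without shMETTL3 replicate 1 (edgeR adjusted p = 0.0185), the opposite of its sign with all libraries, to 1.16 without shMETTL3 replicate 2.

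Same-numbered libraries did not deviate together, with correlations of their deviations of 0.0614, 0.00511 and -0.0200 between the groups over 17686 genes, so the replicate number was not treated as pairing. With the number as a block, 3264, 1459 and 2478 genes were called, and among the 10 genes 1, 2 and 3, as without it.

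With 2 libraries a group, the spread of a gene is known poorly and leans on what all genes share. FOSB and FOSL2, with 13 to 52 reads a library, and FOS, with 66 to 192, had the widest intervals, and changes smaller than these could not be seen.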
